A study of Mus musculus with 8 samples.

Results

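To compare the state that 2 mutant germ cell cultures reach after meiotic induction, spermatogonial cultures deficient for Stra8 (labelled STRA8KO, here Stra8KO) were set against cultures labelled SPO11KO (here labelled Spo11KO), both after NRRA, the combination of a nutrient restriction medium and retinoic acid (RA). The comparison used 4 of the 8 poly(A) RNA-seq libraries of the series, 2 per genotype, and every gene with enough counts to be tested, 20588 genes in all. The other 4 libraries hold the same genotypes in vehicle (Veh) and are given beside the results. All cultures were primary spermatogonia from mouse pups in a C57BL/6XDBA/2 background, kept in medium with N2, bFGF and GDNF on a layer of irradiated embryonic fibroblasts from CF1 mice, so that every library is a mixture of germ cell and feeder RNA. The nutrient restriction medium is this culture medium diluted with a salt solution (EBSS), so that GDNF and bFGF were also diluted in the NRRA groups of both genotypes. Both alleles are whole-animal knockouts from other laboratories, and no wild-type library was analysed here. The replicates were described as biologically independent, but it was not stated whether they came from separately derived cultures, so that p-values may measure only the spread between these libraries. The libraries held 20960794 to 27038868 counts, and the replicates of every group differed by more than sampling noise, with a mean chi-square per gene of 1.86 to 4.12.

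STRA8 is the RA-induced transcription factor that, with its partner MEIOSIN, switches spermatogonia from mitosis to meiotic prophase. SPO11 acts later and cuts the chromosomes to start recombination, after the meiotic gene program is already running. Undifferentiated spermatogonia depend on GDNF, which signals through GFRA1 and RET, and on FGF. RA moves these cells to the KIT-positive differentiating state, from which meiosis is entered.

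The targeted genes were read first. Stra8 (ENSMUSG00000029848, mm10 chr6:34920163-34939344) had 169 and 170 counts in the Stra8KO NRRA libraries and 12604 and 16191 in the labelled Spo11KO NRRA libraries. This was 8.16 and 7.85 CPM (counts scaled to a fixed library size) against 486 and 552 CPM, so that the mean in Stra8KO was 1.54% of that in labelled Spo11KO. The log2 difference, given throughout as Stra8KO minus labelled Spo11KO, was -6.02 with a standard error (SE) of 0.09 (edgeR quasi-likelihood test, Benjamini-Hochberg adjusted p = 2.6e-21). In vehicle the gene had 2 and 0 counts in Stra8KO and 28 and 12 in labelled Spo11KO, an 18.1-fold difference with a 95% exact interval of 4.69 to 154 that covers counting error only. Spo11 (ENSMUSG00000005883, mm10 chr2:172977700-172993576) had 68 and 66 counts in Stra8KO NRRA and 148 and 127 in labelled Spo11KO NRRA, or 3.28 and 3.05 CPM against 5.71 and 4.33 CPM. The libraries labelled Spo11KO thus held more Spo11 reads, not fewer (log2 difference -0.66, SE 0.19, adjusted p = 0.0023, and 0.084 without labelled Spo11KO NRRA replicate 1). Relative to the pan-germ genes, a second scale described below, the difference was 0.36. That value lay within the range of the pan-germ genes themselves on that scale, -0.26 to 0.84. The sign of the estimated difference for Spo11 thus depended on the scale. Whole-gene counts do not show which exons were read, so the Spo11 genotype could not be checked, and the group is called by its label.

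The cultures differed most broadly in their germ cell and fibroblast transcripts. The 10 pan-germ genes, such as Ddx4, an RNA helicase of the germ line, and Dazl, a germ cell RNA-binding protein, summed to 975 and 920 CPM in the Stra8KO NRRA libraries and to 1904 and 1953 CPM in the labelled Spo11KO NRRA libraries. The 16 fibroblast markers, among them collagens and fibronectin, went the other way and summed to 42998 and 42365 CPM against 22322 and 21645 CPM. All 10 pan-germ genes were lower in Stra8KO, with a median log2 difference of -1.07 and a range from -1.29 (Tdrd9) to -0.18 (Tex19.1, adjusted p = 0.059 without labelled Spo11KO NRRA replicate 1). All 16 fibroblast markers were higher, with a median of 0.92 and a narrow range from 0.78 (Postn) to 1.08 (Pdgfrb). Of these S100a4, at 0.682 to 2.08 CPM after NRRA, lost its call without Stra8KO NRRA replicate 2 (adjusted p = 0.11) or labelled Spo11KO NRRA replicate 2 (adjusted p = 0.065). Of all tested genes, 35.0% were called higher and 28.9% lower at an adjusted p under 0.05, 64.0% in all, and their median was 0.07. The gap was already there in vehicle, with medians of -1.02 for pan-germ genes and 0.89 for fibroblast markers. In bulk RNA, fewer cells of a type and less RNA per cell cannot be told apart.

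**Figure D1:**
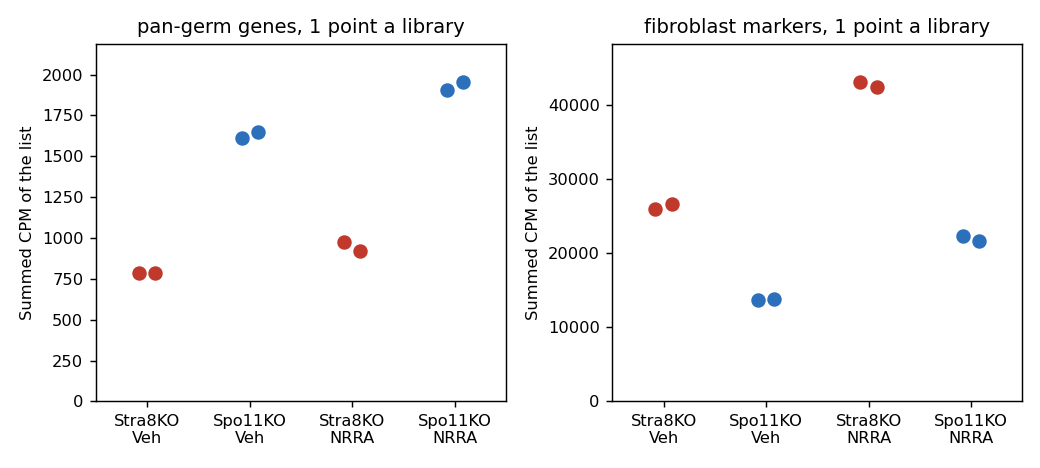
Summed CPM of the 10 pan-germ genes (left) and the 16 fibroblast markers (right), with 1 point per library and both axes starting at 0. After NRRA the pan-germ sum was 920 to 975 CPM in Stra8KO and 1904 to 1953 CPM in labelled Spo11KO, and the fibroblast sum was 42365 to 42998 CPM against 21645 to 22322 CPM.

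Each germ cell gene is therefore given on 2 scales. The first scaled libraries over all genes by TMM (trimmed mean of M-values). The second scaled them by the summed counts of the pan-germ genes, which takes the pan-germ level per germ cell as alike in both genotypes. On the first scale 7214 genes were higher and 5956 lower in Stra8KO NRRA, and 3819 genes, 18.5% of those tested, also differed by at least 2-fold. Scaling by total counts instead shifted all genes by -0.21 and turned the split to 5349 higher and 8182 lower. Relative to pan-germ genes, 16634 genes were higher and 534 lower, 80.8% and 2.59% of those tested (83.4% in all), and the median over all genes was 1.09. Feeder transcripts are thus high throughout on the second scale, which is read here mainly for genes of germ cells.

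Meiotic genes as a whole were lower in Stra8KO cultures by about the amount of the pan-germ genes. Of 48 tested genes in 5 meiotic lists, Stra8 left out, 47 were lower on the TMM scale and the other, Rad51ap2, was not called, with a median log2 difference of -0.94. Of the 47 calls, 6 were lost without at least 1 library, namely those of Ythdc2 and Zfp541 without either NRRA replicate 2, of Rec8 and Rnf212 without Stra8KO NRRA replicate 1, of Spo11 without labelled Spo11KO NRRA replicate 1, and of Mlh3 without any 1 of the 4 NRRA or the 2 Stra8KO Veh libraries. Relative to pan-germ genes the median was 0.09, and 16 were higher, 12 lower and 20 not called. All tested genes were 35.0% higher and 28.9% lower on the TMM scale, and 80.8% higher and 2.59% lower relative to pan-germ genes. By list the medians on the 2 scales were -0.95 and 0.08 for the 8 meiotic entry regulators with Stra8, -0.95 and 0.08 for the 4 meiotic cohesin subunits, -0.92 and 0.10 for the 10 synaptonemal complex and axis genes, -1.05 and -0.02 for the 9 genes of double-strand break (DSB) formation, and -0.76 and 0.27 for the 18 tested genes of strand exchange and crossover. Medians so close to 0 have no firm direction. Those of the meiotic entry and cohesin lists became -0.04 without Stra8KO NRRA replicate 2, and that of the DSB list 0.03 without labelled Spo11KO NRRA replicate 1.

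**Figure D2:**
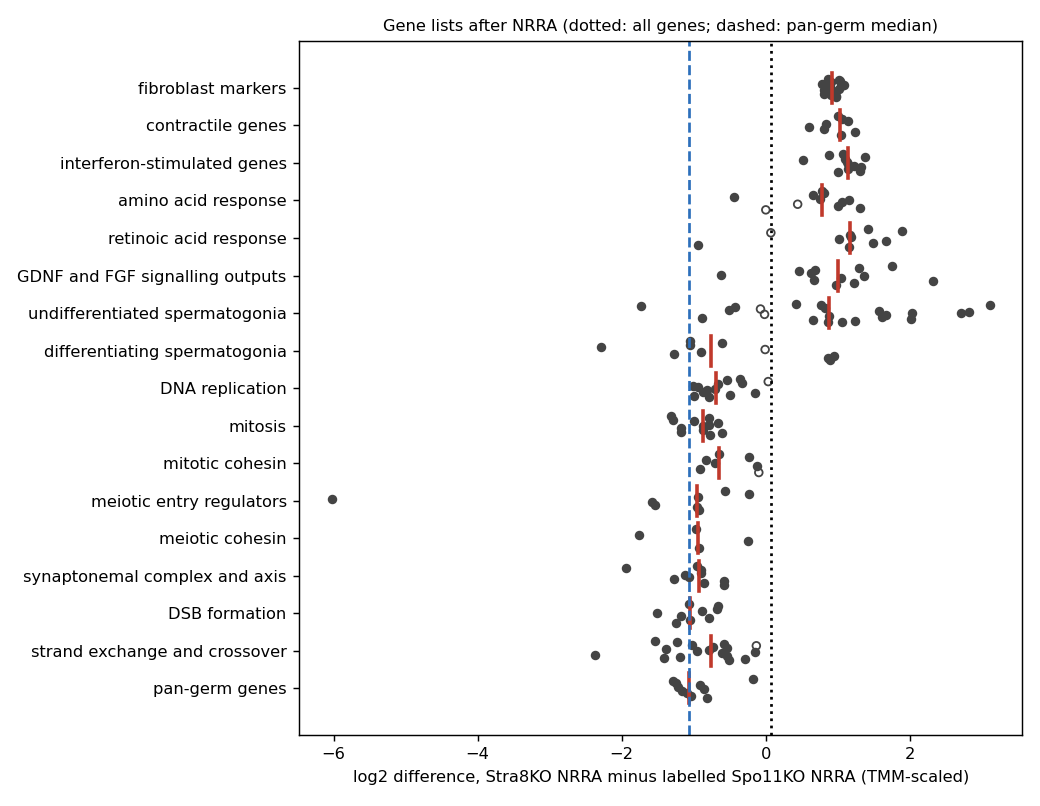
Log2 difference after NRRA (Stra8KO minus labelled Spo11KO, TMM-scaled) for each tested member of 17 gene lists, filled where the adjusted p was under 0.05, with a red bar at each list's median. The dashed line is the pan-germ median of -1.07 and the dotted line the median of all genes, 0.07. Each list's median lies between the pan-germ median and 1.18, and the undifferentiated spermatogonia genes spread from -1.73 to 3.11.

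Some meiotic genes departed from this shared level. Sycp3, an element of the chromosome axis, read 14.3 and 12.3 CPM in Stra8KO NRRA and 51.8 and 50.3 CPM in labelled Spo11KO NRRA, a log2 difference of -1.94 (SE 0.08) that was still -0.92 (SE 0.09, adjusted p = 8.2e-12) relative to pan-germ genes. Smc1b, the meiotic cohesin ring subunit, read 71.5 and 60.0 CPM against 215 and 230 CPM, with differences of -1.76 and, relative to pan-germ genes, -0.73 (SE 0.06, adjusted p = 6.2e-15). Rbm46, an RNA-binding protein needed for meiotic entry, read 30.2 and 28.0 CPM against 85 and 89.3 CPM, with differences of -1.58 and -0.56 (SE 0.07, adjusted p = 3.4e-09). In each of these 3 genes the lowest labelled Spo11KO library stood above the highest Stra8KO library by more than the replicates of either group differed, while over all tested genes the groups did not overlap in 80.8%. Meioc, a partner of YTHDC2 in meiotic entry, read 10.8 and 9.65 CPM against 28.1 and 31.0 CPM. Its difference was -1.53, or -0.51 (adjusted p = 1.3e-05) relative to pan-germ genes. The recombinase gene Dmc1 read 6.76 and 7.06 CPM against 17.8 and 19 CPM, with differences of -1.41 and -0.39 (adjusted p = 0.0042).

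The other genes lower relative to pan-germ genes were Meiob (-1.35), Tex15 (-0.51), Msh5 (-0.36) and Tex11 (-0.20) in strand exchange and crossover, Mei4 (-0.49) and Ankrd31 (-0.22) in DSB formation, and Syce1 (-0.24) in the synaptonemal complex. The 10 pan-germ genes themselves ran from -0.26 to 0.84 on this scale, with 3 called higher and 3 lower. Tex11, Ankrd31 and Syce1 lay within that range, and so did Rec8 and Ythdc2 among the higher genes. The count of 12 genes lower was 8 without Stra8KO NRRA replicate 1, 10 without any 1 of the other 3 NRRA libraries and 12 without any 1 vehicle library. For 7 of the 12, namely Sycp3, Smc1b, Rbm46, Meioc, Dmc1, Mei4 and Tex11, the difference was also larger after NRRA than in vehicle by the test of the interaction, which called 14.8% of all tested genes higher and 10.3% lower (25.1% in all). Sycp3 read 6.08 and 7.15 CPM in Stra8KO Veh and 10.8 and 12 CPM in labelled Spo11KO Veh, so that its interaction was -1.15 (adjusted p = 2.55e-08). The interactions of Meiob and Tex15 did not pass the test (adjusted p = 0.74 and 0.15), with TMM-scaled differences of -2.69 and -1.68 in vehicle and -2.37 and -1.54 after NRRA.

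**Figure D3:**
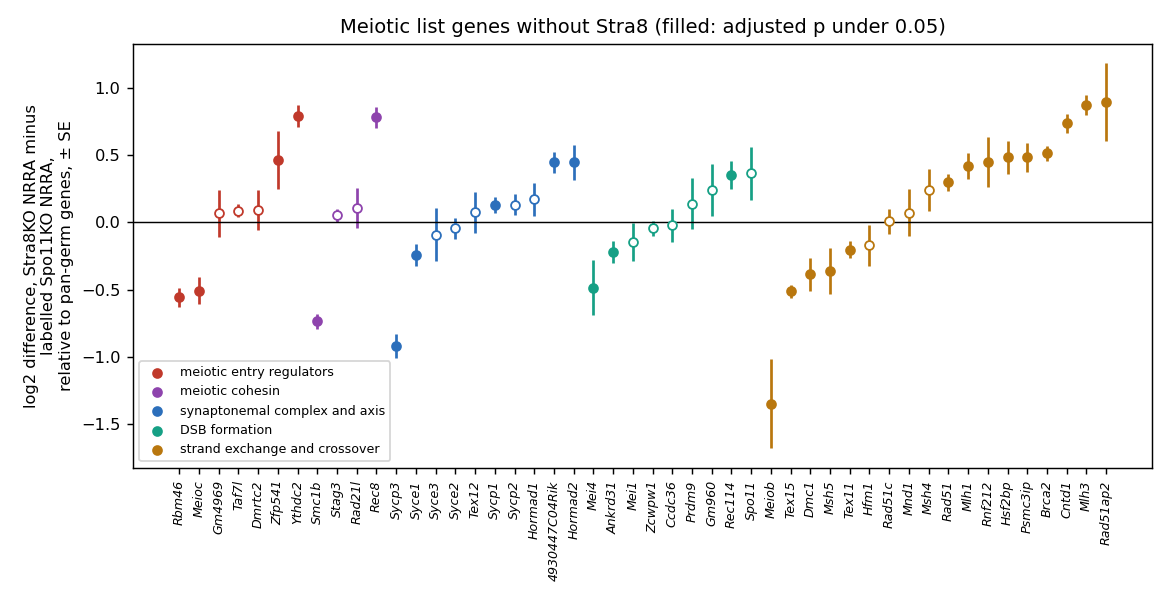
Log2 difference after NRRA relative to pan-germ genes (± SE) for the 48 tested meiotic genes other than Stra8, coloured by list and filled where the adjusted p was under 0.05. Most genes sit near 0, while Meiob (-1.35), Sycp3 (-0.92) and Smc1b (-0.73) lie lowest, and Rec8 (0.78) and Ythdc2 (0.79) lie high.

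Several meiotic genes were at or above the pan-germ level in Stra8KO. Rec8, the meiotic kleisin, read 55.2 and 61.3 CPM in Stra8KO NRRA against 69.3 in each labelled Spo11KO NRRA library, and 5.14 and 3.37 CPM against 13.2 and 12 CPM in vehicle. Its difference was -0.25 (adjusted p = 0.054 without Stra8KO NRRA replicate 1) on the TMM scale and 0.78 (SE 0.08, adjusted p = 6.6e-11) relative to pan-germ genes, with an interaction of 1.30. Gm4969, which encodes MEIOSIN, read 3.76 and 4.20 CPM against 7.72 and 7.81 CPM, a difference of 0.07 (SE 0.20, adjusted p = 0.73) relative to pan-germ genes. Sycp1, the transverse filament of the synaptonemal complex, read 69.1 and 61.1 CPM against 117 and 125 CPM, 0.13 on that scale (adjusted p = 0.036). Prdm9, the methyltransferase that marks recombination sites, read 2.94 and 2.77 CPM against 5.17 and 5.39 CPM, 0.14 on that scale (adjusted p = 0.49), and was at 2.95 to 3.26 CPM in all 4 vehicle libraries. On the TMM scale its difference was -0.89 after NRRA and 0.01 in vehicle, with a called interaction of -0.90 (edgeR interaction test, adjusted p = 0.011).

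The promoters of 5 of these genes are shown because STRA8 is a DNA-binding regulator and the genes stood on either side of the pan-germ level. They are RefSeq windows on GRCm38.p6, from 250 bases before to 50 after a transcription start, in lower case, with capitals at matches to CNCCTCAG, a motif known from STRA8-bound promoters, sought on both strands.
Stra8, chr6:34920698-34920997, plus strand: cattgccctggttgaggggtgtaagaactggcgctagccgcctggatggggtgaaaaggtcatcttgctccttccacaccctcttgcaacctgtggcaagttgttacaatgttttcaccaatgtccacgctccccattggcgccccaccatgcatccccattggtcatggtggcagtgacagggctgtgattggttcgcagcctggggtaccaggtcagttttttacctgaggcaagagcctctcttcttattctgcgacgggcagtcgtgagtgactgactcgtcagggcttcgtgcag
Sycp3, chr10:88459337-88459636, plus strand: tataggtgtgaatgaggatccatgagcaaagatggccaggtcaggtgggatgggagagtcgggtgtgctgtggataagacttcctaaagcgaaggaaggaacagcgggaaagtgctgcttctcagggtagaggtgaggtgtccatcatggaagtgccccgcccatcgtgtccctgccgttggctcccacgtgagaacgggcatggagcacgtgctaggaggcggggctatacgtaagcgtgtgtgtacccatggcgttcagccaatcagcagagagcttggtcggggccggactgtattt
Smc1b, chr15:85131908-85132207, minus strand: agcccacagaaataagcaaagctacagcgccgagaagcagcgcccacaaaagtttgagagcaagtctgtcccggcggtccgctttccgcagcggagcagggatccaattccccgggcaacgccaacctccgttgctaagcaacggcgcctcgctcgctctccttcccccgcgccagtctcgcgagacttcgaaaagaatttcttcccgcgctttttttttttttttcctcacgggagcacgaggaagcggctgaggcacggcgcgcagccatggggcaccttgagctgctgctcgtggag
Rbm46, chr3:82876434-82876733, minus strand: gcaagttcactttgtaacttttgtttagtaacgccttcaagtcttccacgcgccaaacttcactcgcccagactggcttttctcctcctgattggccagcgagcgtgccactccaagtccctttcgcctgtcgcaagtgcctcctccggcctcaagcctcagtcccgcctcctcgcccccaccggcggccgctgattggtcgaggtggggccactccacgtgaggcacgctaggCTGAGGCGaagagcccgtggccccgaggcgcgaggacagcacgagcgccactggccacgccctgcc
Sycp1, chr3:102936051-102936350, minus strand: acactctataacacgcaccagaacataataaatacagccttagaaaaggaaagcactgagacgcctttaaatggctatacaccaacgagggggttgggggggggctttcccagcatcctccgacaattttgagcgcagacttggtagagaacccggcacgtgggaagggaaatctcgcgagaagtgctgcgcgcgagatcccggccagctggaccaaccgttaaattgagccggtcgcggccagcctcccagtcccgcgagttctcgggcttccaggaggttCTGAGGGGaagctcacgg
Rbm46, which was low relative to pan-germ genes, and Sycp1, which was not, each held 1 match, at bases 235 to 242 and 283 to 290 of the window and on the opposite strand to the motif as written. The windows of Stra8, Sycp3 and Smc1b held none. The motif was in the windows of 9 of the 42 genes of the 5 meiotic lists with a sequence (21.4%), 5 of 10 in the synaptonemal complex and axis list, against 9.12% of all 27025 genes with a sequence. The E-box CACGTG was in 12 of the 42 (28.6%), 6 of 10 in the same list, against 8.09% of all genes. The pan-germ genes held each motif in 3 of 7 windows (42.9%), and the GDNF and FGF outputs held CNCCTCAG in 3 of 7. These matches are descriptions of the letters and do not mark binding sites.

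The 165 early meiosis genes that the study assembled were lower in the same way, with 139 lower, 13 higher and 13 not called on the TMM scale and a median of -0.76. The study kept these genes because they differed between treatments of its own cultures, so that their direction is not independent evidence, and the list holds all 10 synaptonemal complex and axis genes, among others of the 5 meiotic lists. Over all tested genes 35.0% were higher and 28.9% lower on that scale. Relative to pan-germ genes 83 of the 165 were higher, 21 lower and 61 not called, with a median of 0.27. The shares of all tested genes were 80.8% higher and 2.59% lower, with a median of 1.09. Of the 165, 2 genes, Dazl and Piwil2, are themselves pan-germ genes of that second scale. Outside the 5 lists, the lowest on that scale among those called were Ccna1, a cyclin of meiotic cells (-1.40), and Ugt8a, an enzyme of galactolipid synthesis (-0.79). Ccna1 read 0.531 and 0.462 CPM in Stra8KO NRRA, 2.51 and 2.83 CPM in labelled Spo11KO NRRA, and 0.403 to 0.566 CPM in the 4 vehicle libraries. It was thus high only in the labelled Spo11KO libraries after NRRA (interaction -2.24, adjusted p = 0.0035).

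Genes of undifferentiated spermatogonia were higher in Stra8KO cultures after NRRA, although those cultures held less germ cell RNA. Of the 22 genes, 16 were higher and 4 lower on the TMM scale, with a median of 0.87. Among all tested genes 35.0% were higher and 28.9% lower on that scale. Relative to pan-germ genes 21 of the 22 were higher and 1 lower, with a median of 1.90. Most genes were higher on this second scale, 80.8% of all tested against 2.59% lower, with a median of 1.09. In vehicle, where 31.6% of all tested genes were called higher and 30.7% lower (62.3% in all), 21 of the 22 were lower in Stra8KO, with a median of -1.22 that was -0.17 relative to pan-germ genes. The interaction was higher for 20 genes and lower for 1, against 14.8% and 10.3% of all tested genes, with a median of 2.27. Of the 22 genes, 15 were called lower in vehicle and higher after NRRA on the TMM scale, against 2.80% of all tested genes (3.75% had opposite calls in either order). The vehicle values of single genes below are also on that scale, where the pan-germ genes had a vehicle median of -1.02. Leaving out any 1 of the 8 libraries left 20 or 21 of the 22 higher relative to pan-germ genes.

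Etv5, a GDNF-responsive transcription factor of stem cells, read 92.4 and 100.3 CPM in Stra8KO NRRA and 23.5 and 24.1 CPM in labelled Spo11KO NRRA, after 143 and 134 CPM against 242 and 243 CPM in vehicle. On the TMM scale the order of the genotypes was thus opposite in the 2 media, with a difference of 2.02 (SE 0.06, adjusted p = 2.0e-32) after NRRA and -0.80 in vehicle. Gfra1, the GDNF receptor, read 110 and 112 CPM against 35.4 and 37.4 CPM after NRRA and 64.0 and 63.5 CPM against 129 and 134 CPM in vehicle (1.61, SE 0.05, against -1.04). Its partner Ret read 92.1 and 82.8 CPM against 48.5 and 49.9 CPM after NRRA (0.83, SE 0.05) and 138 and 144 CPM against 363 and 348 CPM in vehicle (-1.33). In all 3 genes the higher genotype in vehicle was the lower after NRRA on the TMM scale. Their vehicle differences of -0.80, -1.04 and -1.33 lay on either side of the pan-germ vehicle median of -1.02.

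Nanos3, an RNA-binding repressor of early spermatogonia, had a difference of 2.72 (SE 0.15), with 14.6 and 15.7 CPM in Stra8KO NRRA and 2.89 and 1.77 CPM in labelled Spo11KO NRRA. Lhx1 (1.67), Id4 (0.87), Bcl6b (1.05), Egr2 (1.24), Pax7 (1.58), Nanos2 (2.03), Utf1 (0.76) and T (3.11), transcription factors or RNA regulators of the same cells, were higher after NRRA and lower in vehicle, and so were Cdh1 (0.87), an adhesion molecule, and Zbtb16 (0.42), the PLZF repressor. Eomes also changed side (0.65 after NRRA, adjusted p = 0.083 without Stra8KO NRRA replicate 2 and 0.19 without labelled Spo11KO NRRA replicate 1). Neurog3, a factor of the cells that leave the stem state, was higher after NRRA (2.83, SE 0.46) but had only 5 and 8 counts in the labelled Spo11KO NRRA libraries. Pou5f1 (-0.07, adjusted p = 0.44) and Lin28a (-0.02, adjusted p = 0.77) did not pass the test on the TMM scale, where Sall4 (-0.42), Pou3f1 (-0.51) and Foxo1 (-0.89) were lower and all 5 were higher relative to pan-germ genes.

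Sox3 was the gene of the list that went the other way on both scales. This transcription factor of spermatogonia committed to differentiate read 26.9 and 27.1 CPM in Stra8KO NRRA, 91.2 and 87.9 CPM in labelled Spo11KO NRRA, 15.4 and 17.3 CPM in Stra8KO Veh and 26.7 and 23.6 CPM in labelled Spo11KO Veh. Its difference was -1.73 (SE 0.07) after NRRA, -0.70 (SE 0.08, adjusted p = 6.8e-11) relative to pan-germ genes, with an interaction of -1.10.

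**Figure D4:**
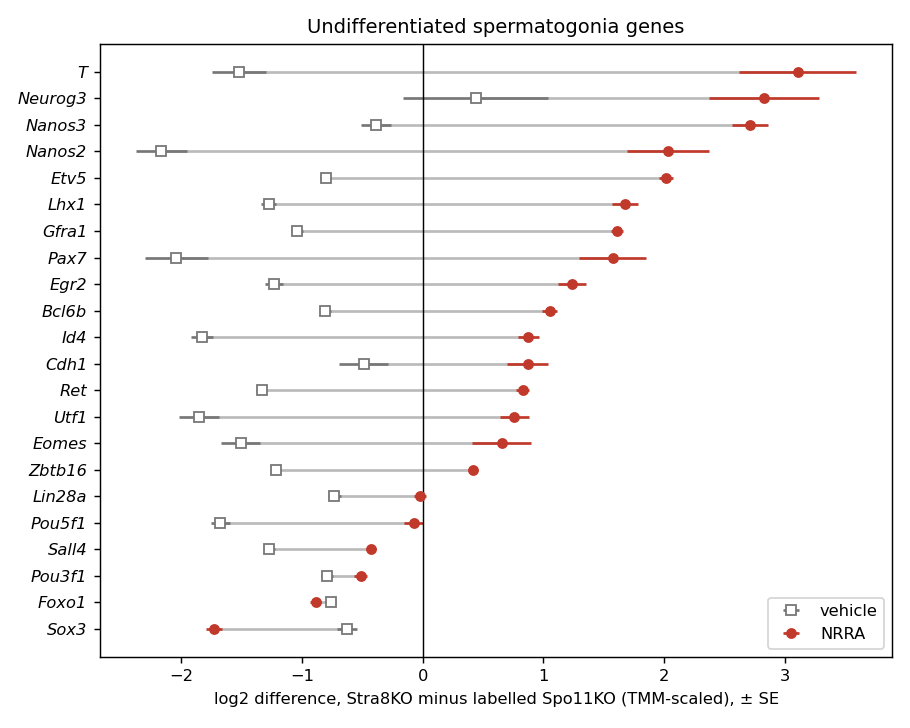
Log2 difference between Stra8KO and labelled Spo11KO cultures (TMM-scaled, ± SE) for the 22 undifferentiated spermatogonia genes, in vehicle (open squares) and after NRRA (filled circles). The NRRA value lies to the right of the vehicle value for all genes but Foxo1 and Sox3, and 15 genes were called lower in vehicle and higher after NRRA, against 2.80% of all genes.

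Outputs of GDNF and FGF signalling, the ERK-induced feedback regulators and transcription factors, followed the same direction. Of 12 genes, 11 were higher in Stra8KO after NRRA and 1, Fos (-0.62), was lower, with a median of 1.01. The shares of all tested genes were 35.0% and 28.9%. In vehicle 6 were higher and 5 lower, against 31.6% and 30.7% of all tested genes, with a median of 0.12. The 10 interactions called were all higher, against 14.8% of all tested genes higher and 10.3% lower. Dusp6, the phosphatase that switches off ERK, read 45.6 and 48.4 CPM in Stra8KO NRRA and 10.3 and 8.63 CPM in labelled Spo11KO NRRA (2.32, SE 0.08), after 256 and 233 CPM against 193 and 189 CPM in vehicle (0.36). Spry4, an inhibitor of receptor signalling, read 37.9 and 33.9 CPM against 10.5 and 10.7 CPM after NRRA (1.75, SE 0.07) and 112 and 111 CPM against 131 and 128 CPM in vehicle. Both genes were lower after NRRA than in vehicle in every library of either genotype, and lowest in labelled Spo11KO NRRA, in media with less GDNF and bFGF than vehicle for both genotypes. Etv4 (1.37), Spry1 (0.68) and Egr1 (0.67) were also higher after NRRA and lower in vehicle. Ccnd1 (0.98 after NRRA and 0.98 in vehicle) and Etv1 (1.04 and 1.17) had about the fibroblast difference in both media. Feeder cells also express genes of this list, and the part of the fibroblast RNA in it was not tested.

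Genes of differentiating spermatogonia were split. Of 10 genes, 6 were lower and 3 higher, against 28.9% and 35.0% of all tested genes, with a median of -0.76. Kit, the receptor that marks the differentiating state, read 181 and 173 CPM in Stra8KO NRRA and 324 and 339 CPM in labelled Spo11KO NRRA, and only 4.92 to 5.49 CPM in the 4 vehicle libraries. It was therefore high after NRRA in both genotypes, with a difference of -0.90 (SE 0.04) that was 0.12 (SE 0.05, adjusted p = 0.016) relative to pan-germ genes. Sohlh1 (-0.61) and Sohlh2 (-1.05), transcription factors of early differentiation, and Rhox13 (-1.06) were lower. Dnmt3b (-1.27, and -0.24 relative to pan-germ genes) and Prss50 (-2.29, and -1.26) were lower on both scales. Dnmt3b lay within the range of the pan-germ genes themselves on the second scale, -0.26 to 0.84. Dmrtb1, a factor of the passage from mitosis to meiosis, was higher after NRRA (0.95) and lower in vehicle (-0.51), at 10.5 and 9.55 CPM against 5.56 and 4.81 CPM after NRRA. Ccnd2 (0.89) and Crabp1 (0.86) were higher by about the fibroblast difference.

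RA-responsive genes were mostly higher in Stra8KO, with 8 of 10 higher, 1 lower and a median of 1.18. They were so already in vehicle, with 9 higher, 1 lower and a median of 0.86, and 5 interactions were called, all higher. The shares of all tested genes were 35.0% higher and 28.9% lower after NRRA, and 31.6% and 30.7% in vehicle. For the interaction they were 14.8% and 10.3%. Dhrs3, a retinaldehyde reductase, read 169 and 184 CPM in Stra8KO NRRA and 52.1 and 58.9 CPM in labelled Spo11KO NRRA, a difference of 1.67 (SE 0.06) against 1.07 in vehicle. Cyp26b1, an RA-degrading enzyme, read 421 and 446 CPM against 151 and 159 CPM (1.49, SE 0.04, against 1.19 in vehicle), and the uptake receptor gene Stra6 8.88 and 8.72 CPM against 2.28 and 2.46 CPM (1.89, SE 0.18). These values lay above the range of the fibroblast markers, 0.78 to 1.08. Rarb, an RA receptor and a direct RA target, read 25.6 and 27.1 CPM against 10.3 and 12.9 CPM after NRRA and at most 0.655 CPM in any vehicle library. The other RA-degrading enzyme, Cyp26a1, was lower (-0.94, SE 0.12) and read 9.03 and 11.2 CPM against 18.2 and 20.8 CPM, which is 0.09 (adjusted p = 0.54) relative to pan-germ genes. Which cells carried these transcripts was not tested.

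Proliferation genes were lower in Stra8KO by somewhat less than the pan-germ genes. Of 14 DNA replication genes 13 were lower and Pola1 was not called (0.03, adjusted p = 0.74), with a median of -0.69. The call for Gins2 (-0.15) was lost without Stra8KO NRRA replicate 1 (adjusted p = 0.18) or labelled Spo11KO NRRA replicate 2 (adjusted p = 0.14). All 12 mitosis genes were lower, against 28.9% of all tested genes, with a median of -0.87. Relative to pan-germ genes 11 replication genes were higher and none lower, against 80.8% and 2.59% of all tested genes. Of the mitosis genes 6 were higher and 4 lower. Those 4 were Top2a (-0.29), Mki67 (-0.26), Bub1 (-0.16) and Ccnb1 (-0.14), which act from late S phase to mitosis. Bub1 and Ccnb1 lay within the range of the pan-germ genes themselves, -0.26 to 0.84, and Mki67 lay at its lower edge. The part of feeder RNA in these lists was not tested. Mki67 read 172 and 167 CPM in Stra8KO NRRA and 396 and 431 CPM in labelled Spo11KO NRRA. The replication interactions that were called, 8 of 14, were all higher, as for Pcna, the sliding clamp, at -0.33 after NRRA and -0.90 in vehicle. The mitotic cohesin subunits were lower in 6 of 7 genes, with a median of -0.65 that was 0.38 relative to pan-germ genes. Of these, Smc1a (-0.12) was -0.05 (adjusted p = 0.51) without Stra8KO NRRA replicate 2 and -0.03 (adjusted p = 0.65) without labelled Spo11KO NRRA replicate 2, and also lost its call without either Stra8KO Veh library, and Stag2 (-0.23) lost its call without Stra8KO NRRA replicate 2 (adjusted p = 0.095). Of 7 genes for cyclin-dependent kinase inhibitors, Cdkn1a (1.05), Cdkn2b (1.10), Cdkn2a (0.45) and Cdkn1c (0.38) were higher, Cdkn2d was lower (-0.40, adjusted p = 0.13 without Stra8KO NRRA replicate 1 and 0.11 without labelled Spo11KO NRRA replicate 1), and the median was 0.38.

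Enzymes of DNA methylation went apart from each other. The maintenance enzyme Dnmt1 (-0.97) and its cofactor Uhrf1 (-0.91), the de novo enzymes Dnmt3a (-0.51) and Dnmt3b (-1.27), and the demethylating dioxygenase Tet3 (-0.92) were lower on the TMM scale. The pan-germ median on that scale was -1.07. Relative to pan-germ genes, 5 of the 8 genes of the list were higher, 1 lower and 2 not called, with a median of 0.32. Of all tested genes 80.8% were higher on that second scale. Tet1 was higher (2.00, SE 0.19), at 9.56 and 6.46 CPM in Stra8KO NRRA and 2.05 and 1.94 CPM in labelled Spo11KO NRRA, and so was Tet2 (1.30, SE 0.09). Tet3 read 89.1 and 95 CPM against 172 and 177 CPM after NRRA and 59.0 to 65.0 CPM in vehicle, so that its libraries of the 2 genotypes came apart after NRRA (interaction -1.03, adjusted p = 5.3e-17). Dnmt3l was close to the threshold (0.59, adjusted p = 0.048), and its call was lost under 13 of 15 alternatives, with an adjusted p of up to 0.37 without Stra8KO NRRA replicate 2.

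The contractile, interferon-stimulated and amino acid response lists were higher in Stra8KO, with medians of 0.79 to 1.13 beside the fibroblast median of 0.92. From which cells these transcripts came was not tested. After NRRA 35.0% of all tested genes were higher and 28.9% lower. All 8 contractile genes were higher, with a median of 1.02, of which Cnn1 lost its call without either NRRA replicate 2 (adjusted p = 0.085 and 0.0998). Acta2, smooth muscle actin, read 805 and 842 CPM against 390 and 409 CPM after NRRA and 46.5 and 40.8 CPM against 23.5 and 24.4 CPM in vehicle. All 12 interferon-stimulated genes were higher, with a median of 1.13 that was 0.96 in vehicle. Of 11 amino acid response genes, targets of ATF4 such as Ddit3 (1.06) and Nupr1 (1.16), 8 were higher and 1, Psat1 (-0.44), lower, with a median of 0.79. Asns, asparagine synthetase, read 50.4 and 51.1 CPM against 49.5 and 52 CPM, a difference of -0.00054 (SE 0.06, adjusted p = 0.99). Phgdh, the first enzyme of serine synthesis, was higher after NRRA (0.75) and lower in vehicle (-0.78).

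Markers of other testis cells were at low levels. The 8 macrophage markers summed to 63.0 and 63.2 CPM in Stra8KO NRRA and 40.7 and 37.3 CPM in labelled Spo11KO NRRA, with 6 of 7 tested higher, of which Ptprc, C1qa and Mrc1, all under 1 CPM in these libraries, lost the call without 1 or more libraries, Stra8KO NRRA replicate 2 in each case. The 8 Sertoli markers summed to 33.5 and 34.3 CPM against 18 and 19.7 CPM, with 3 of 4 tested higher, 1 of them, Inha, only with labelled Spo11KO NRRA replicate 1 kept (adjusted p = 0.051 without it). Amh and Fshr, which define Sertoli cells, had at most 0.302 CPM in any of the 8 libraries. The Sertoli marker Wt1 was at 12 CPM in both Stra8KO NRRA libraries and at 3.68 to 4.30 CPM in the other 6 (1.62, SE 0.14, interaction 1.71). The 6 Leydig markers summed to 5.83 to 7.16 CPM in the 4 NRRA libraries, with 1 of 3 tested, Cyp17a1, lower (-2.80) at under 0.5 CPM in each of them. That call was lost without Stra8KO NRRA replicate 1 (-1.90, adjusted p = 0.14) and without labelled Spo11KO NRRA replicate 2 (-2.16, adjusted p = 0.15). Insl3 and Lhcgr, which define Leydig cells, had at most 0.0965 CPM in any of the 8 libraries. Of 5 tested endothelial markers, Pecam1 was far higher after NRRA, at 7.67 and 7.15 CPM against 1.27 and 1.09 CPM (2.65, SE 0.20), and slightly lower in vehicle (-0.43), while Cdh5, the defining cadherin, was lower (-0.997, SE 0.25). Emcn was higher (0.71, adjusted p = 0.20 without labelled Spo11KO NRRA replicate 1), Kdr and Tie1 were not called, and Cldn5 had at most 0.154 CPM. The part of these cells in the results was not tested.

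The largest falls, of which 11 are described, were led by Stra8. In each but Lhx2, both labelled Spo11KO NRRA libraries read above both labelled Spo11KO Veh libraries. Lhx8, an oocyte and neuron LIM-homeobox factor, read 0.772 and 0.738 CPM in Stra8KO NRRA, 6.64 and 7.20 CPM in labelled Spo11KO NRRA and at most 0.537 CPM in vehicle (-3.19, SE 0.25, interaction -4.06). Osbp2, an oxysterol-binding protein, read 1.64 and 1.02 CPM against 8.03 and 7.54 CPM after NRRA and 1.57 to 2.42 CPM in vehicle (-2.55, SE 0.21). Lhx2 was low in Stra8KO in both media, at 0.241 and 1.06 CPM against 6.14 and 6.58 CPM after NRRA and 1.39 and 1.01 CPM against 22.6 and 18.2 CPM in vehicle. The other falls were Mpped1 (-3.66), Ppp1r1b (-3.45), Pax8 (-3.30), Plk5 (-3.02), Tjp3 (-3.02), Evpl (-2.87) and Cpne7 (-2.75). All 11 were also lower relative to pan-germ genes, from -1.53 for Osbp2 to -4.99 for Stra8. That scale shifts all genes nearly alike, so that falls of this size stayed below 0 by their selection, which adds no support.

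Of the 12 largest rises, 5 genes were also higher in Stra8KO in vehicle on the TMM scale, 5 were lower there and 2 were not called. Of the 5 lower, Trf was also lower in vehicle relative to pan-germ genes (-0.19). On that scale Sall3 (0.46) and Dtx1 (0.50) were higher, and Btbd17 and Pcdh12 were not called. Sall3, a zinc finger repressor, read 74.3 and 76.0 CPM in Stra8KO NRRA and 3.20 and 3.45 CPM in labelled Spo11KO NRRA, after 66.8 and 62.4 CPM against 100.2 and 94.9 CPM in vehicle (4.49, SE 0.09, interaction 5.09). Trf, transferrin, read 77.0 and 79.0 CPM against 7.56 and 7.03 CPM after NRRA and 44.3 and 42.3 CPM against 106 and 98.9 CPM in vehicle (3.42, SE 0.07). For both genes labelled Spo11KO NRRA was the lowest of the 4 groups. Sox2, a pluripotency factor, read 14.9 and 14.0 CPM against 0.463 and 0.478 CPM after NRRA and 2.70 to 4.88 CPM in vehicle (4.92, SE 0.21), and Dtx1, a regulator of Notch signalling, 37.0 and 36.7 CPM against 3.28 and 2.22 CPM after NRRA and 4.18 to 6.70 CPM in vehicle (3.76, SE 0.12). For these 2 genes labelled Spo11KO NRRA was also the lowest of the 4 groups. They were highest in Stra8KO NRRA, while Sall3 and Trf were highest in labelled Spo11KO Veh.

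Gdap1l1 (3.66), Mir670hg (3.52), Tbc1d30 (3.38), Col6a6 (3.73) and Pcdh12 (5.0) were likewise higher after NRRA, and of these Col6a6 (1.48) and Tbc1d30 (0.57) were also higher in vehicle. Btbd17 had 124 and 104 counts against 0 and 2 after NRRA, a 149-fold difference with an exact interval of 40.7 to 1234. Trim12a had 133 and 140 counts against 1 and 0 after NRRA, a 356-fold difference with an interval of 63.3 to 14101, and 154 against 2 counts over the vehicle libraries (85.2-fold, 23.2 to 710). Trim12a belongs to a cluster of close gene copies, and reads shared with them make its counts uncertain. Fam163a was similar in both media (3.27 after NRRA and 2.79 in vehicle). Over these 23 genes, 19 interactions were called, and those of Stra8, Lhx2, Trim12a and Fam163a were not.

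**Figure D5:**
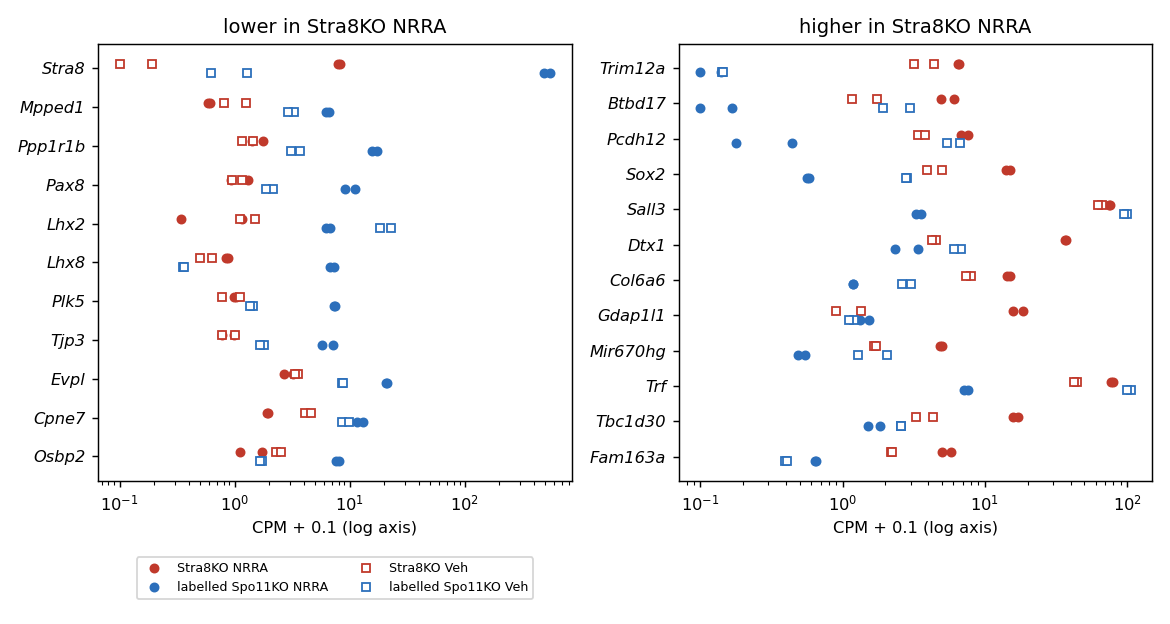
CPM plus 0.1, on a log axis, in each of the 8 libraries for 11 of the genes lowest and the 12 genes highest in Stra8KO NRRA, with filled circles for NRRA and open squares for vehicle. For Lhx8 and Osbp2 labelled Spo11KO NRRA stands above the other 3 groups, and for Sall3 and Trf it stands below them.

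Genes near the targeted loci were set against the 64.0% of all genes called. Within 10 Mb of Stra8, 84 of 143 tested genes were called (58.7%), and 20 (14.0%) also differed by at least 2-fold. Within 10 Mb of Spo11, 150 of 241 were called (62.2%), and 45 (18.7%) differed by at least 2-fold. The medians were -0.13 and 0.01. Wdr91, whose start is nearest to that of Stra8, had a difference of -0.56 (SE 0.06) after NRRA and 0.03 in vehicle, and Rae1, nearest to Spo11, -0.49 (SE 0.05) and -0.50. These 2 genes were chosen after their values were seen.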

How the data were processed

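Poly(A) RNA was sequenced from 8 mouse culture libraries, 2 per group. The authors deposited raw counts per gene, made with STAR 2.6.1c and featureCounts 1.6.4 on mm10 per the submitters' processing notes. The table held 55421 genes. Totals were 20960794 to 27038868 counts per library (21989961 to 27038868 in the 4 NRRA libraries), which sets the precision of low genes. Counts were filtered with filterByExpr (20588 genes), scaled by TMM and tested with edgeR 4.0.16 (glmQLFit, robust, and glmQLFTest, two-sided, R 4.3.3) in 1 group-means model of all 8 libraries, with the 4 groups sharing the spread. Genes were called at a Benjamini-Hochberg adjusted p under 0.05. A second fit scaled libraries by the summed counts of 10 pan-germ genes. CPM are TMM-scaled. The fit was tested on simulated data. The named genes are Stra8, Spo11, list members, and the 12 largest rises and 12 largest falls among called genes, limited to those whose mean log2 CPM was 1 or more, whose symbol is not a clone or predicted-gene name and whose NRRA groups did not overlap. No per-library column was left unused. The members, lists and tests were chosen with earlier results of these data known. DESeq2 1.42.0 was an alternative. 1 gene that met the naming rule is not reported here. Promoter windows are from RefSeq, matched by symbol.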

Additional observations from a re-analysis of the deposited data

Results flagged for a closer look

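The difference between Stra8KO and labelled Spo11KO cultures itself differed between NRRA and vehicle for 5172 of 20588 genes, by the edgeR interaction test (adjusted p under 0.05), which is 25.1% of those tested. Each value below is the log2 interaction, the NRRA difference minus the vehicle difference. The cultures in the 2 media are separate libraries, and the part of the germ cell and feeder shares in these interactions was not tested.

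Of the 226 tested members of the lists by role, 24 were called in opposite directions in the 2 media, 23 of them lower in vehicle and higher after NRRA, with Cdh5 (-1.75) as the exception. Over all tested genes 772 (3.75%) were called in opposite directions. These directions are on the TMM scale, where the pan-germ genes had a vehicle median of -1.02. Among the undifferentiated spermatogonia genes, 21 of 22 had a called interaction, and those called in opposite directions were Bcl6b (1.86), Cdh1 (1.36), Egr2 (2.47), Eomes (2.16), Etv5 (2.82), Gfra1 (2.65), Id4 (2.70), Lhx1 (2.95), Nanos2 (4.19), Nanos3 (3.10), Pax7 (3.62), Ret (2.16), T (4.62), Utf1 (2.61) and Zbtb16 (1.63). Among GDNF and FGF signalling outputs, 10 of 12 had a called interaction, with opposite calls for Egr1 (1.44), Etv4 (1.94), Spry1 (1.17) and Spry4 (1.97). The others were Dmrtb1 (1.47) of 7 called among 10 differentiating spermatogonia genes, Phgdh (1.53) of 5 among 11 amino acid response genes, Mrc1 (2.65) of 3 among 7 macrophage markers, and Pecam1 (3.08), which with Cdh5 was among 3 of 5 endothelial markers.

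In the meiotic lists, interactions were called for 2 of 8 meiotic entry regulators, 3 of 4 meiotic cohesin subunits, 2 of 10 synaptonemal complex and axis genes, 4 of 9 DSB genes and 3 of 18 strand exchange and crossover genes. The 11 that were lower were Meioc (-0.50), Rbm46 (-0.91), Smc1b (-0.84), Stag3 (-0.30), Sycp3 (-1.15), Mei1 (-0.91), Mei4 (-0.82), Prdm9 (-0.90), Zcwpw1 (-0.33), Dmc1 (-0.78) and Tex11 (-0.46). Of the 165 early meiosis genes, 49 had a called interaction.

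The remaining lists had called interactions in 5 of 10 pan-germ genes, 7 of 16 fibroblast markers, 1 of 8 contractile genes, 1 of 4 Sertoli markers, 2 of 7 mitotic cohesin subunits, 5 of 10 RA-responsive genes, 8 of 14 replication genes, 3 of 12 mitosis genes, 2 of 7 cyclin-dependent kinase inhibitors, 5 of 8 DNA methylation enzymes and 2 of 12 interferon-stimulated genes.

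Of the 23 largest differences described, 19 had a called interaction. Those of the falls were Mpped1 (-1.99), Ppp1r1b (-2.01), Pax8 (-2.28), Lhx8 (-4.06), Plk5 (-2.37), Tjp3 (-1.97), Evpl (-1.53), Cpne7 (-1.65) and Osbp2 (-3.07). Those of the rises were Pcdh12 (5.78), Sox2 (4.26), Sall3 (5.09), Dtx1 (4.31), Col6a6 (2.26), Gdap1l1 (3.67), Mir670hg (3.5), Trf (4.66) and Tbc1d30 (2.82), and Btbd17, whose fitted 7.80 depends on the prior count because its labelled Spo11KO NRRA libraries held 0 and 2 counts.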

How the results depend on the processing

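The number of genes called after NRRA, 13170, ranged from 11286 with DESeq2 to 13531 with total-count scaling, and from 11723 to 13397 without any 1 library. With an absolute log2 difference of at least 1 also required, it was 3819. Total-count scaling lowered the share of higher calls from 54.8% to 39.5%. Without any 1 library the calls ranged from 16143 to 17561 relative to pan-germ genes, from 11317 to 12875 in vehicle and from 4041 to 4870 for the interaction. Of 231 called genes of the lists and largest differences, 210 kept their call under all 15 alternatives, 21 lost it in at least 1 and 0 changed direction. The median of the Leydig markers changed sign to 0.13 with no filter, 0.30 with a mean of at least 10 counts, 0.23 with only the NRRA libraries, and lay between -0.25 and 0.37 without 1 library. The endothelial median became 0.19 with a mean of at least 10 counts. Relative to pan-germ genes, the medians of the meiotic entry and cohesin lists became -0.043 and -0.037 without Stra8KO NRRA replicate 2, and that of the DSB list 0.031 without labelled Spo11KO NRRA replicate 1. Without any 1 library these medians ranged from -0.043 to 0.127, from -0.037 to 0.183 and from -0.079 to 0.031. The median of all genes became -0.14 with total counts, 0 with no filter and -0.014 with only the NRRA libraries. The cause was not tested for any of these. Counts limit the genes under about 1 CPM most.

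The replicate numbers did not pair the libraries. The correlation of replicate deviations was -0.05 between the NRRA groups and -0.07 to 0.14 over all pairs of groups. With a replicate block, 13109 genes were called after NRRA, 17088 relative to pan-germ genes, 12765 in vehicle and 5140 for the interaction. The alternatives for vehicle, the interaction, and the lists relative to pan-germ genes were chosen after seeing the data.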
